A study of Drosophila melanogaster with 9 samples.

Results

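The 21 genes described here are aminoacyl-tRNA synthetase genes, taken as every one of 15602 listed genes whose symbol in the deposited tables begins with Aats-. Aminoacyl-tRNA synthetases join each amino acid to its own transfer RNAs, and the charged tRNAs then carry the amino acids to the ribosome. The cytosol and the mitochondrion have separate synthetases for most amino acids, all encoded in the nucleus, and the enzymes fall into class I and class II by the fold of their catalytic domain. In animals some cytosolic synthetases sit together in a multisynthetase complex held by scaffold proteins (AIMP proteins). By the -m suffix of their current symbols 6 of the 21 genes encode mitochondrial enzymes (Aats-ala-m, Aats-leu, Aats-met, Aats-phe, Aats-pro and Aats-ser). The other 15 are called cytosolic here. No separate mitochondrial gene is listed for the amino acids of Aats-gln, Aats-gly, Aats-his, Aats-lys and Aats-thr. Whether these genes also serve the mitochondrion was not tested. Of the 21 genes 9 belong to class I, 11 to class II, and Aats-glupro joins a class I and a class II enzyme in a single protein. The old symbols hide the division by compartment, since Aats-leu, Aats-met, Aats-phe, Aats-pro and Aats-ser are named for an amino acid alone but encode the mitochondrial enzyme. Another 15 synthetase genes are listed under CG numbers or as Slimp and are set beside the 21 where a partner is needed.

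Poly(A) RNA was sequenced from staged ovarian follicles of Drosophila melanogaster females, 100 follicles to a sample, in 3 groups of 3 libraries. The groups are stage 10 follicles from females with a temperature-sensitive mutation of EcR, the receptor of the steroid hormone ecdysone (EcRts stage 10), stage 10 follicles from wild-type females, and stage 8 follicles from wild-type females. Yolk uptake by the oocyte is under way in stage 8 follicles, and follicle cells lay down the first eggshell layer in stage 10 follicles. The labels give the strain Oregon R and an age of 6 to 14 days for all samples. Growth at 25 °C is given for all samples, but EcR mutants spent the time from 2 days past eclosion at a restrictive temperature. Neither that temperature nor the EcR alleles are given in the sources used here, so genotype and temperature cannot be told apart. EcR itself was at 21.2, 19.9 and 20.8 FPKM in EcRts stage 10, 20.3, 22.6 and 20.1 FPKM in wild-type stage 10, and 19.0, 19.9 and 19.4 FPKM in wild-type stage 8. A mutation that impairs the protein need not alter this transcript, so these values do not check the labels.

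Values are FPKM, fragments scaled to transcript length and to the mapped fragments of the library, which allows levels to be set side by side between genes. Changes are differences of mean log2(FPKM + 1), given with a standard error (SE), and a gene rose or fell where its limma p, adjusted by Benjamini-Hochberg over 8340 tested genes, was under 0.05. All 21 synthetase genes were tested, and counts of synthetase genes below are of these 21 unless others are named. Confidence limits in the deposited tables imply 27.2 to 33.3 M fragments in the EcRts libraries, 17.5 to 21.3 M in wild-type stage 10 and 18.6 to 21.7 M in wild-type stage 8, so implied depth differed along with genotype. They imply 214.1 to 10220.0 fragments behind a synthetase gene in a library. Markers of follicle cells and germline were abundant in all libraries, and hemocyte and neuron markers summed to at most 0.302 and 1.29 FPKM, with He at 0 in all 9 libraries. In whole follicles, fewer cells of a type and less RNA per cell cannot be told apart.

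The cytosolic and mitochondrial genes occupied separate ranges in every group. Mean levels of the 15 cytosolic genes ran from 41.1 to 124 FPKM in EcRts stage 10, from 47.6 to 127 FPKM in wild-type stage 10 and from 43.4 to 143.5 FPKM in wild-type stage 8. Mean levels of the 6 mitochondrial genes ran from 10.3 to 17.4 FPKM, from 13.1 to 18.7 FPKM and from 11.3 to 19.2 FPKM in the same groups. No mitochondrial gene among the 21 reached the level of the lowest cytosolic one. In EcRts stage 10 the highest was Aats-asn, the asparaginyl enzyme, at 124 ± 4.98 FPKM (SD, n = 3 here and below), and in wild-type stage 10 it was Aats-thr, the threonyl enzyme, at 127 ± 3.78 FPKM. In wild-type stage 8 the highest was Aats-lys, the lysyl enzyme, at 143.5 ± 1.46 FPKM, ahead of Aats-asp, the aspartyl enzyme, at 136 ± 1.97 FPKM. Aats-asn overlapped Aats-asp there, at 136 ± 9.34 FPKM. Aats-cys and Aats-val, the cysteinyl and valyl enzymes, were the lowest cytosolic genes of the 21 in both stage 10 groups. Their levels there were 42.6 ± 1.05 and 41.1 ± 1.42 FPKM in EcRts stage 10 and 47.6 ± 4.40 and 48.7 ± 2.47 FPKM in wild-type stage 10. The synthetase genes outside the Aats- symbols showed the same division with an exception. CG31739, the mitochondrial aspartyl enzyme, was at 41.0 ± 0.809 FPKM in EcRts stage 10, 39.2 ± 2.91 FPKM in wild-type stage 10 and 34.4 ± 0.372 FPKM in wild-type stage 8, well above the other mitochondrial genes.

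**Figure D1:**
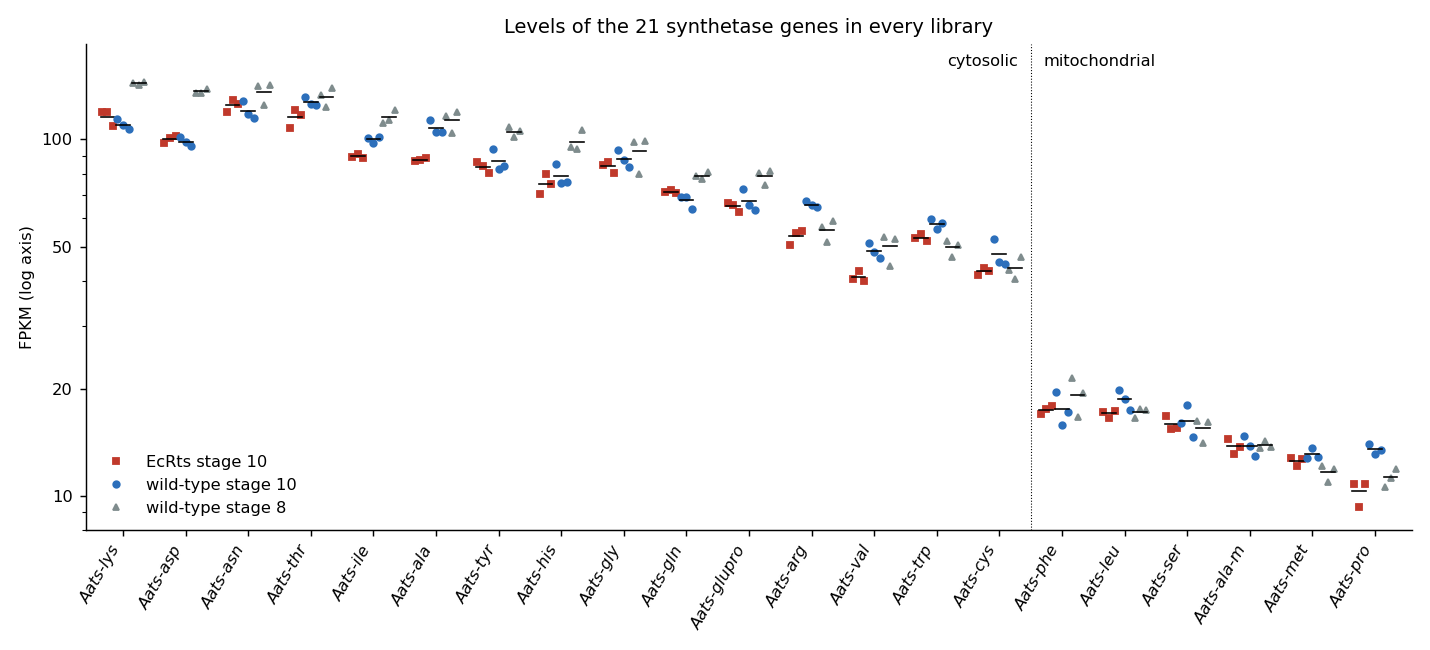
FPKM (log axis) of each of the 21 Aats- genes in every library, with EcRts stage 10 as squares, wild-type stage 10 as circles and wild-type stage 8 as triangles, and a bar at each group mean. The 15 cytosolic genes lie above the 6 mitochondrial ones in all groups, and Aats-lys and Aats-asp stand higher in all 3 wild-type stage 8 libraries than in any stage 10 library.

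8 of the 21 loci overlap another listed gene in the dm3 coordinates of the tables. The library kit does not mark strand and the strand setting of the counting is not given in the sources used here, so reads from overlapping genes may have been assigned to either. The overlapping gene averaged 49.2 FPKM at Aats-asp (Nmda1), 82.8 FPKM at Aats-gln (CG11858), 17.4 FPKM at Aats-ser (CG6218), 11.3 FPKM at Aats-cys (CG10731) and 6.7 FPKM at Aats-ala-m (Gen), and under 1 FPKM at the other 3. Values of these genes are uncertain to that extent. Aats-lys at X:9500396-9502917, Aats-tyr at 3L:16410449-16412402, Aats-arg at X:15735796-15738169 and Aats-ala at 2L:8378262-8381764 overlap no listed gene.

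The stage comparison, wild-type stage 10 against wild-type stage 8, asks what happens to these genes as the follicle passes into eggshell formation. Most cytosolic synthetase genes had lower values at stage 10, and 8 fell: Aats-asp, Aats-lys, Aats-his, Aats-tyr, Aats-glupro, Aats-gln, Aats-ile and Aats-asn. 4 rose, the cytosolic Aats-arg and Aats-trp and the mitochondrial Aats-pro and Aats-met. The largest change among the 21 genes was the fall of Aats-asp by 0.46 on the log2 scale. Among all tested genes 49.2% rose and 18.9% fell, so the 21 genes had fewer rises and more falls than this background. Their median change was -0.068, against 0.20 for all tested genes, and 18 of the 21 lay below the median of all genes.

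Among the synthetases that belong to the multisynthetase complex in mammals, 6 carry Aats- symbols, of which 5 fell and 1 rose, a grouping made after the values were seen. The cytosolic leucyl and methionyl enzymes of that complex are listed as CG33123, at 70.5 ± 1.57 FPKM in wild-type stage 10 and 68.9 ± 4.42 FPKM in wild-type stage 8, and as CG15100, at 44.0 ± 2.86 FPKM in wild-type stage 10 and 45.1 ± 3.69 FPKM in wild-type stage 8. Neither passed the test, so of these 8 genes 5 fell and 1 rose. Aats-asp stood at 101, 98.0 and 96.0 FPKM in wild-type stage 10, against 135, 135 and 138 FPKM in wild-type stage 8. Aats-lys stood at 114, 109 and 107 FPKM in wild-type stage 10, against 143, 142 and 145 FPKM in wild-type stage 8. For both genes every stage 10 library lay below every stage 8 library, and the changes of -0.46 (SE 0.035, adjusted p = 1.46e-05) and -0.38 (SE 0.045, adjusted p = 0.000124) passed the test. Aats-glupro, which charges both glutamate and proline tRNAs in the cytosol, was at 72.5, 65.3 and 63.3 FPKM in wild-type stage 10, against 80.6, 74.4 and 81.3 FPKM in wild-type stage 8. Aats-gln, the glutaminyl enzyme, was at 69.1, 69.0 and 63.9 FPKM in wild-type stage 10, against 79.1, 77.4 and 80.7 FPKM in wild-type stage 8. Aats-ile, the isoleucyl enzyme, was at 101, 97.8 and 102 FPKM in wild-type stage 10, against 111, 113 and 121 FPKM in wild-type stage 8. The groups did not overlap for any of these genes, and each fell, with changes of -0.23 (SE 0.0595, adjusted p = 0.00857) for Aats-glupro, -0.23 (SE 0.040, adjusted p = 0.00118) for Aats-gln and -0.20 (SE 0.040, adjusted p = 0.00222) for Aats-ile. The estimate of Aats-ile carried a failed status in 1 wild-type stage 8 and 1 EcRts library, although a value was listed there. Aats-arg, the arginyl enzyme of the complex, went the other way, at 67.0, 65.2 and 64.5 FPKM in wild-type stage 10, against 56.7, 51.7 and 58.9 FPKM in wild-type stage 8. It rose without overlap of the groups (0.23, SE 0.0565, adjusted p = 0.0064).

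Of the 9 other cytosolic genes, 3 fell, 1 rose and 5 did not pass the test. Aats-his, the histidyl enzyme, was at 85.2, 75.3 and 75.8 FPKM in wild-type stage 10, against 95.2, 93.9 and 106 FPKM in wild-type stage 8. Aats-tyr, the tyrosyl enzyme, was at 93.8, 82.3 and 84.3 FPKM in wild-type stage 10, against 108, 101 and 106 FPKM in wild-type stage 8. All stage 10 values of both genes lay below the stage 8 values, with changes of -0.32 (SE 0.0735, adjusted p = 0.00493) for Aats-his and -0.27 (SE 0.056, adjusted p = 0.00265) for Aats-tyr. Aats-asn averaged 120.1 ± 6.85 FPKM in wild-type stage 10 and 136 ± 9.34 FPKM in wild-type stage 8, and its groups overlapped although it passed the test (-0.17, SE 0.063, adjusted p = 0.0376). Aats-trp, the tryptophanyl enzyme, was at 59.8, 56.0 and 58.4 FPKM in wild-type stage 10, against 51.9, 46.8 and 50.6 FPKM in wild-type stage 8. It rose (0.22, SE 0.048, adjusted p = 0.00365), and its lowest stage 10 library lay above its highest stage 8 library. Aats-thr averaged 127 ± 3.78 FPKM in wild-type stage 10 and 132 ± 7.98 FPKM in wild-type stage 8. Aats-ala, the alanyl enzyme, averaged 107 ± 4.84 FPKM in wild-type stage 10 and 113 ± 8.03 FPKM in wild-type stage 8. Both pairs of groups overlapped, and neither gene passed the test. The same held for Aats-gly, the glycyl enzyme, at 87.9 ± 4.95 FPKM in wild-type stage 10 and 92.6 ± 10.8 FPKM in wild-type stage 8, for Aats-val at 48.7 ± 2.47 and 50.0 ± 5.18 FPKM in wild-type stages 10 and 8, and for Aats-cys at 47.6 ± 4.40 and 43.4 ± 3.21 FPKM in wild-type stages 10 and 8.

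Of the 6 mitochondrial genes 2 rose and 0 fell by limma, also at an unadjusted p under 0.05. Of all tested genes 49.2% rose and 18.9% fell, so the rises were not more frequent here than among all genes. Aats-pro, the mitochondrial prolyl enzyme at 3L:2650161-2651850, was at 14.0, 13.1 and 13.4 FPKM in wild-type stage 10, against 10.6, 11.2 and 11.9 FPKM in wild-type stage 8. Aats-met, the mitochondrial methionyl enzyme, was at 12.8, 13.6 and 12.9 FPKM in wild-type stage 10, against 12.1, 10.9 and 11.9 FPKM in wild-type stage 8. Both rose without overlap of the groups, Aats-pro by 0.24 (SE 0.071, adjusted p = 0.0149) and Aats-met by 0.16 (SE 0.055, adjusted p = 0.0332). Aats-leu, Aats-ser, Aats-ala-m and Aats-phe, the mitochondrial leucyl, seryl, alanyl and phenylalanyl enzymes, did not pass the test and had overlapping groups. Their mean levels in wild-type stage 10 were 18.7 ± 1.21, 16.2 ± 1.66, 13.8 ± 0.899 and 17.5 ± 1.87 FPKM, against 17.1 ± 0.50, 15.5 ± 1.23, 13.9 ± 0.366 and 19.2 ± 2.39 FPKM in wild-type stage 8. By catalytic class, 3 of 9 class I genes rose and 3 fell, and of 11 class II genes 1 rose and 4 fell.

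**Figure D2:**
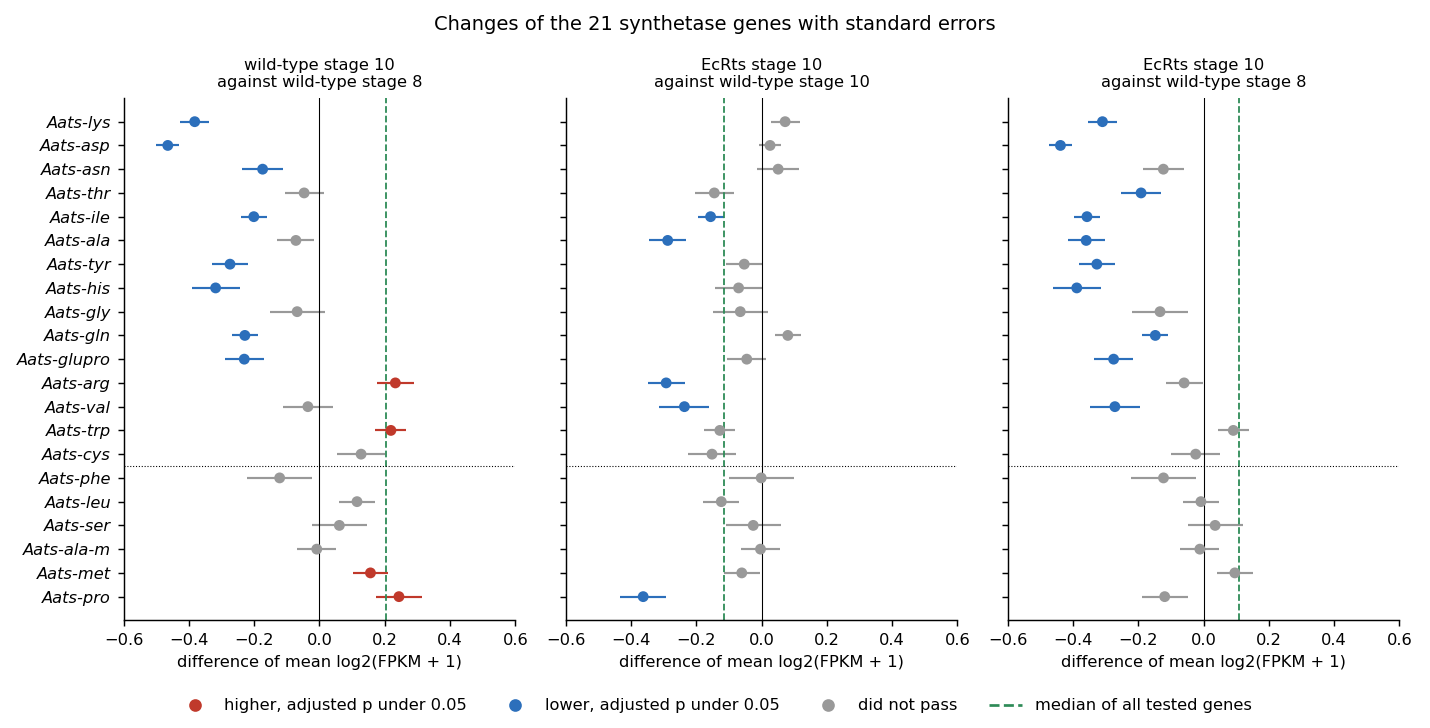
Differences of mean log2(FPKM + 1), with standard errors, for the 21 genes in 3 panels (wild-type stage 10 over wild-type stage 8, EcRts over wild-type at stage 10, and EcRts stage 10 over wild-type stage 8), with genes that passed the test in red (higher) or blue (lower) and the median of all tested genes as a dashed line. Left of that line lie 18 of the 21 genes in the stage panel, 9 in the genotype panel and all 21 in the panel that combines both.

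How many genes rose or fell depended on how the libraries were scaled to each other. Besides the deposited FPKM, 5 scalings were tried: median of ratios, quantiles, and common sums without eggshell and yolk genes, over protein-coding genes, or without ribosomal protein genes. Over all tested genes the median change between wild-type stages was 0.20 as deposited and -0.013, -0.0052, 0.42, 0.14 and 0.26 under these, in this order. By median of ratios 0 synthetase genes rose and 14 fell, where 31.1% of all genes rose and 32.0% fell. By quantiles 0 rose and 17 fell, beside 31.5% and 30.4% of all genes. Without eggshell and yolk genes 10 rose and 2 fell, beside 64.6% and 10.4%. Over protein-coding genes 2 rose and 9 fell, beside 43.2% and 22.1%, and without ribosomal protein genes 5 rose and 7 fell, beside 53.6% and 16.6%. Rises were fewer among the synthetase genes than among all genes under every scaling, and falls were the more frequent among them except without eggshell and yolk genes. Aats-asp and Aats-lys fell under all 6 scalings, and relative to the median of all genes their changes as deposited were -0.67 and -0.59. Aats-his, Aats-tyr, Aats-gln and Aats-glupro had a negative change under all 6 and fell under 5. The change of Aats-ile turned positive without eggshell and yolk genes (0.024), as did that of Aats-asn (0.052). The changes of Aats-trp and Aats-met turned negative by median of ratios (-0.013 and -0.062). By quantiles those of Aats-pro and Aats-met turned negative (-0.045 and -0.13), and Aats-met passed the test as lower (adjusted p = 0.0478). Aats-met, Aats-ser, Aats-thr, Aats-leu, Aats-ala and Aats-ala-m passed the test as higher under some scalings and as lower under others. Aats-arg came to 0.0001 by median of ratios, so none of the 21 Aats- genes rose under all 6. Without wild-type stage 10 replicate 1, 2 genes rose, as Aats-pro (adjusted p = 0.0526) and Aats-met (adjusted p = 0.0549) no longer passed, and omitting replicate 1 of wild-type stage 8 ended the call of Aats-pro as well (adjusted p = 0.051). Aats-met was lost too without replicate 2 or 3 of either wild-type group or EcRts replicate 3, and Aats-asn without wild-type stage 8 replicate 1 or 3, wild-type stage 10 replicate 2 or 3 or EcRts replicate 3, with adjusted p of 0.0517 to 0.105 and 0.0556 to 0.118. Both were lost as well with no filter on low values (adjusted p = 0.0609 for Aats-met and 0.0539 for Aats-asn) and with only the wild-type groups in the fit (adjusted p = 0.0661 for each).

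**Figure D3:**
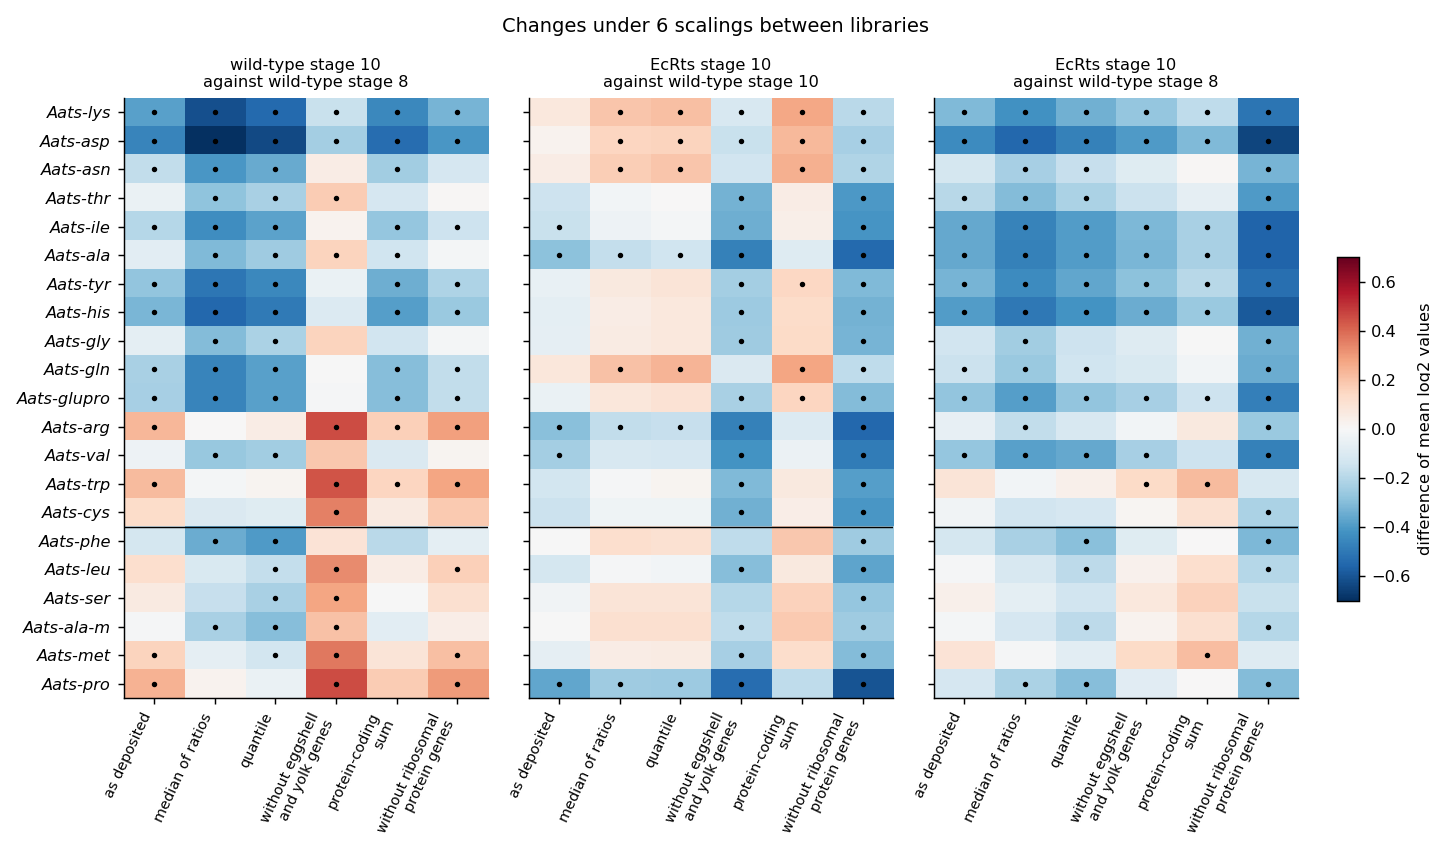
Change of each of the 21 genes (colour, difference of mean log2 values) under 6 scalings between libraries, in 3 panels (wild-type stage 10 over wild-type stage 8, EcRts over wild-type at stage 10, and EcRts stage 10 over wild-type stage 8), with a dot where the adjusted p was under 0.05. Aats-lys and Aats-asp are blue with a dot under every scaling in the stage panel, no gene is so in the genotype panel, and 7 genes are in the panel that combines both.

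The summed level of fat body markers was higher in both stage 10 groups than in stage 8, and their part in the results was not tested. Of 5 such markers Rfabg alone was tested, and it rose in the stage comparison (1.32, adjusted p = 0.0164). The summed level of the 5 was 3.94 to 16.2 FPKM in EcRts stage 10, 8.03 to 15.8 FPKM in wild-type stage 10 and 2.68 to 3.80 FPKM in wild-type stage 8. Not all moved alike, as Fbp1 was listed at 0 in every stage 10 library. In EcRts stage 10, 2 of the 5, Fbp1 among them, were at 0 in all libraries.

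A ratio of the cytosolic to the mitochondrial synthetase for the same amino acid within a library does not depend on scaling by a common factor. 16 such ratios could be formed from all synthetase genes listed, and they were added after the levels had been seen. Some share a gene, since Aats-glupro and Aats-phe each enter 2. In the stage comparison 14 of the 16 ratios were lower, 8 of them without overlap of the groups, and 1 was higher without overlap. Among single genes, 20.0% were lower and 51.4% higher at stage 10 without overlap. Those shares depend on scaling and the ratios do not, so they are not a like background. The share over all pairs of genes was not computed. With 3 libraries a group the exact two-sided permutation test cannot go below p = 0.1, which all 9 ratios without overlap reached, so none of the 48 ratio comparisons can pass the threshold.

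The ratio of Aats-val to CG5660, the mitochondrial valyl enzyme, was 6.01, 6.79 and 5.59 in EcRts stage 10, 6.23, 6.27 and 6.21 in wild-type stage 10, and 11.3, 11.1 and 11.6 in wild-type stage 8. Here the denominator moved, since Aats-val did not pass the test between stages while CG5660 rose (0.70, SE 0.078, adjusted p = 9.8e-05), at 8.24, 7.68 and 7.48 FPKM in wild-type stage 10 against 4.70, 3.98 and 4.55 FPKM in wild-type stage 8. The ratio of Aats-asp to CG31739 was 2.33, 2.49 and 2.51 in EcRts stage 10, 2.63, 2.31 and 2.61 in wild-type stage 10, and 3.89, 3.98 and 4.00 in wild-type stage 8. Both stage 10 groups lay well below stage 8 in these ratios and overlapped each other. The ratio of Aats-glupro to Aats-pro was 6.14, 7.03 and 5.81 in EcRts stage 10, 5.18, 4.99 and 4.72 in wild-type stage 10, and 7.59, 6.62 and 6.81 in wild-type stage 8. Wild-type stage 10 was the lowest group in this ratio, apart from both others, while EcRts stage 10 and wild-type stage 8 overlapped. The ratio of Aats-cys to CG8257, the mitochondrial cysteinyl enzyme, was the exception, averaging 4.01 in wild-type stage 10 and 3.22 in wild-type stage 8. The cytosolic phenylalanyl enzyme is built from an alpha subunit, encoded by CG2263, and a beta subunit, encoded by CG5706. Their FPKM ratio was close to even in all groups, at 0.961 in EcRts stage 10, 0.981 in wild-type stage 10 and 0.955 in wild-type stage 8.

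**Figure D4:**
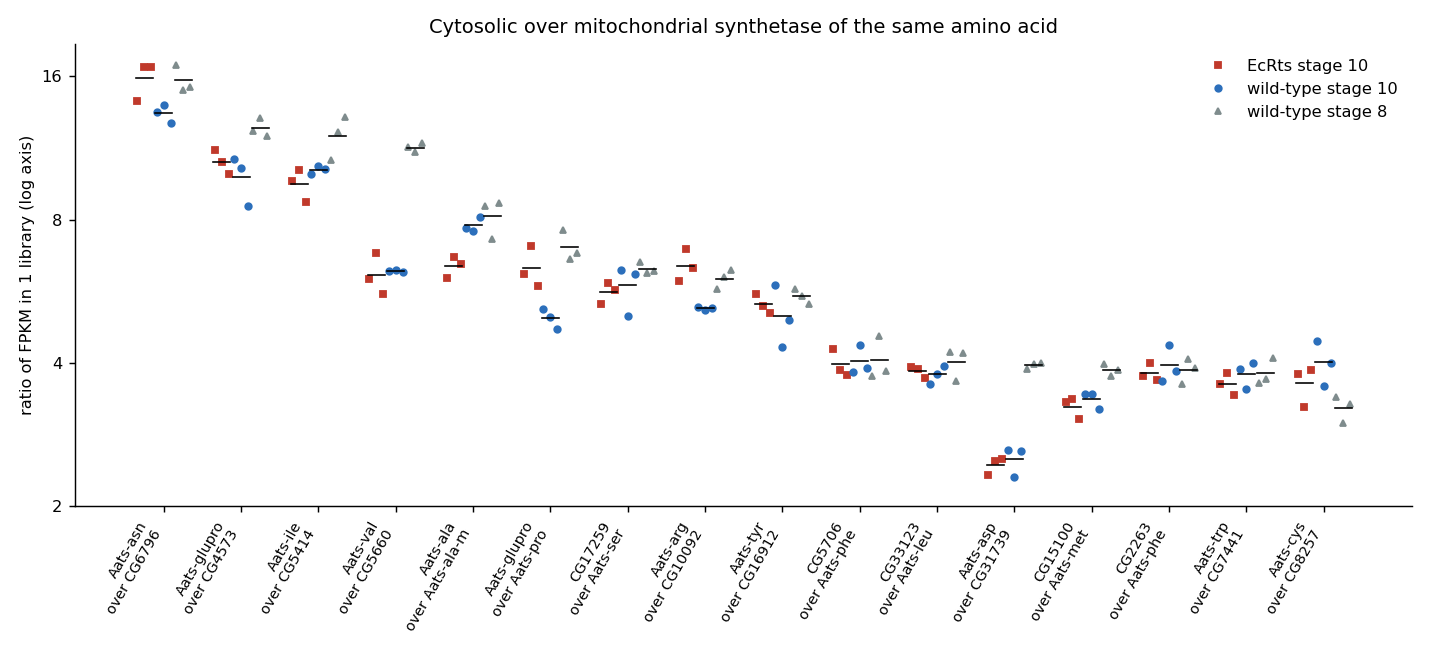
Ratio of the FPKM of the cytosolic synthetase to that of the mitochondrial synthetase for the same amino acid, within each library (log axis), for 16 pairs, with EcRts stage 10 as squares, wild-type stage 10 as circles, wild-type stage 8 as triangles and a bar at each group mean. Aats-val over CG5660 and Aats-asp over CG31739 are lower in all stage 10 libraries than in any stage 8 library, and Aats-cys over CG8257 is higher in wild-type stage 10 than in wild-type stage 8.

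The genotype comparison, EcRts stage 10 against wild-type stage 10, sets EcR mutants at a restrictive temperature beside the wild type at the same stage. Genotype and temperature differ together in it. By limma 5 of the 21 fell and 0 rose (7 and 0 at an unadjusted p under 0.05). The genes that fell were the mitochondrial Aats-pro and the cytosolic Aats-arg, Aats-ala, Aats-val and Aats-ile, all without overlap of the groups. Among all tested genes 33.9% fell and 9.93% rose, so the share of falls among the synthetase genes was below the background as deposited. This order did not hold under every scaling, as given below. Their median change of -0.065 was close to the -0.12 of all tested genes, and 9 of 21 lay below it.

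Aats-pro was at 10.8, 9.31 and 10.8 FPKM in EcRts stage 10, against 14.0, 13.1 and 13.4 FPKM in wild-type stage 10. Aats-arg was at 50.5, 54.5 and 55.2 FPKM in EcRts stage 10, against 67.0, 65.2 and 64.5 FPKM in wild-type stage 10. These are the genes with the largest rises between the wild-type stages among the 21, and both comparisons share the wild-type stage 10 libraries. The changes were -0.36 (SE 0.071, adjusted p = 0.00492) for Aats-pro and -0.29 (SE 0.0565, adjusted p = 0.00471) for Aats-arg. Aats-ala was at 87.1, 87.4 and 88.6 FPKM in EcRts stage 10, against 113, 105 and 104 FPKM in wild-type stage 10. Aats-val was at 40.6, 42.8 and 40.0 FPKM in EcRts stage 10, against 51.3, 48.2 and 46.5 FPKM in wild-type stage 10. Aats-ile was at 89.2, 91.0 and 88.9 FPKM in EcRts stage 10, against 101, 97.8 and 102 FPKM in wild-type stage 10. Every EcRts library lay below every wild-type stage 10 library in these genes, with changes of -0.29 (SE 0.0566, adjusted p = 0.00507) for Aats-ala, -0.24 (SE 0.0764, adjusted p = 0.0365) for Aats-val and -0.16 (SE 0.040, adjusted p = 0.015) for Aats-ile. The other 16 genes had changes between -0.15 (Aats-cys) and 0.081 (Aats-gln), and none passed the test. Aats-asp and Aats-lys, which fell between the wild-type stages, were at 100.2 ± 2.15 and 116 ± 5.87 FPKM in EcRts stage 10 and 98.4 ± 2.66 and 109.9 ± 3.48 FPKM in wild-type stage 10.

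These calls also depended on scaling. Over all tested genes the median change was -0.12 as deposited, -0.0008 by median of ratios, -0.012 by quantiles, -0.29 without eggshell and yolk genes, 0.072 over protein-coding genes and -0.36 without ribosomal protein genes. By median of ratios 4 synthetase genes rose and 3 fell, where 19.7% of all genes rose and 18.8% fell, and by quantiles the counts were again 4 and 3, beside 19.1% and 20.9%. Without eggshell and yolk genes 0 rose and 17 fell, beside 5.47% and 62.0%. Over protein-coding genes 6 rose and 0 fell, beside 27.0% and 12.6%, and without ribosomal protein genes 0 rose and 21 fell, beside 4.80% and 71.2%. Falls were less frequent than among all genes, except without eggshell and yolk genes or without ribosomal protein genes, where they were more frequent. Aats-pro, Aats-arg and Aats-ala had a negative change under all 6 scalings and fell under 5, missing the threshold over protein-coding genes (adjusted p = 0.096, 0.155 and 0.182). Relative to the median of all genes their changes as deposited were -0.25, -0.18 and -0.17. Aats-val kept a negative change and fell under 3 scalings, while Aats-ile turned to 0.042 over protein-coding genes. Aats-asp, Aats-lys, Aats-asn, Aats-gln, Aats-glupro and Aats-tyr passed the test as higher under some scalings and as lower under others. Without EcRts replicate 3, 3 genes fell, since Aats-ile (adjusted p = 0.0518) and Aats-val (adjusted p = 0.103) no longer passed. Aats-val was lost as well without either other EcRts replicate or wild-type stage 10 replicate 1 or 2, with adjusted p of 0.0559 to 0.113, and with no filter on low values (adjusted p = 0.0577). Within libraries, the ratio of Aats-ala to Aats-ala-m was 6.03, 6.66 and 6.45 in EcRts stage 10 and 7.68, 7.59 and 8.09 in wild-type stage 10. It was the only one of the 16 ratios that was lower without overlap, while the ratios of Aats-arg to CG10092, Aats-asn to CG6796 and Aats-glupro to Aats-pro were higher without overlap. Among single genes 43.2% were lower and 14.1% higher without overlap in this comparison, shares that depend on scaling as the ratios do not. CG10092 encodes the mitochondrial arginyl enzyme and was at 8.51, 7.87 and 8.71 FPKM in EcRts stage 10, against 12.8, 12.6 and 12.4 FPKM in wild-type stage 10. Like Aats-pro it fell (-0.54, SE 0.066, adjusted p = 0.000648), and it did so under all 6 scalings.

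Several muscle markers differed between the genotypes. Of 9 markers of the muscle sheath around the ovariole, 5 were tested, of which 4 rose in the genotype comparison and 5 in EcRts stage 10 relative to wild-type stage 8. The summed level of the 9 was 9.96 to 14.4 FPKM in EcRts stage 10, 3.40 to 6.80 FPKM in wild-type stage 10 and 2.84 to 5.77 FPKM in wild-type stage 8, and none was at 0 throughout a group. Among markers too low to be tested, sls was at 0.068 to 0.132 FPKM in EcRts stage 10, below the 0.164 to 0.211 FPKM of wild-type stage 10, and TpnC41C was listed at 0 in 2 of 3 libraries of each group. Their part in the results was not tested, nor was that of the implied depth.

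The combined comparison, EcRts stage 10 against wild-type stage 8, sets stage, genotype and temperature together and shares its libraries with both others. By limma 10 synthetase genes fell and 0 rose, as they did at an unadjusted p under 0.05, and all 10 were cytosolic. Among all tested genes 21.5% fell and 39.8% rose. All 21 genes lay below the median change of all tested genes, 0.11, and their own median was -0.13. The 6 mitochondrial genes had changes between -0.12 (Aats-phe) and 0.096 (Aats-met), and none passed the test.

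In the genes of the complex, Aats-asp was at 97.8, 101 and 102 FPKM in EcRts stage 10 and fell (-0.44, SE 0.035, adjusted p = 3.86e-05) relative to the 135 to 138 FPKM of wild-type stage 8. Aats-lys was at 119, 119 and 109 FPKM in EcRts stage 10 (-0.31, SE 0.045, adjusted p = 0.000557). Aats-glupro was at 66.4, 65.5 and 62.7 FPKM in EcRts stage 10 (-0.28, SE 0.0595, adjusted p = 0.0043). These EcRts values lay close to those of wild-type stage 10 given above and below all stage 8 values. Aats-ile was at 89.2, 91.0 and 88.9 FPKM in EcRts stage 10 (-0.36, SE 0.040, adjusted p = 0.000156). Aats-gln was at 71.3, 71.9 and 70.5 FPKM in EcRts stage 10 (-0.15, SE 0.040, adjusted p = 0.0127). Of the 6 Aats- genes of the complex 5 fell, and Aats-arg at 53.4 ± 2.52 FPKM in EcRts stage 10 and 55.8 ± 3.72 FPKM in wild-type stage 8 did not pass the test.

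Of the other cytosolic genes 5 fell. Aats-his was at 70.0, 79.9 and 74.9 FPKM in EcRts stage 10 (-0.39, SE 0.0735, adjusted p = 0.00224). Aats-tyr was at 86.1, 84.1 and 80.4 FPKM in EcRts stage 10 (-0.33, SE 0.056, adjusted p = 0.00136). Both were below all stage 8 libraries in every EcRts library, as in wild-type stage 10. Aats-ala fell in this comparison (-0.36, SE 0.0566, adjusted p = 0.000862), with 116, 104 and 119 FPKM in wild-type stage 8. Aats-val fell as well (-0.27, SE 0.0764, adjusted p = 0.0148), with 53.4, 44.1 and 52.7 FPKM in wild-type stage 8. Aats-thr averaged 115.2 ± 7.10 FPKM in EcRts stage 10 and 132 ± 7.98 FPKM in wild-type stage 8 (-0.19, SE 0.060, adjusted p = 0.0234). The groups of these genes did not overlap. Aats-asp, Aats-lys, Aats-glupro, Aats-ile, Aats-tyr, Aats-his and Aats-ala fell under all 6 scalings, while Aats-val fell under 5 and Aats-thr and Aats-gln under 4, with a negative change under each. By median of ratios 0 synthetase genes rose and 14 fell, where 30.3% of all genes rose and 29.3% fell, and by quantiles 0 rose and 15 fell, beside 29.4% and 28.7%. Without eggshell and yolk genes 1 rose and 8 fell, beside 42.9% and 19.4%, and over protein-coding genes 2 rose and 7 fell, beside 51.4% and 15.9%. Without ribosomal protein genes 0 rose and 18 fell, beside 21.9% and 35.1%. Leaving out EcRts replicate 1 or wild-type stage 8 replicate 1 or 3 ended the call of Aats-thr (adjusted p of 0.0591 to 0.0805), and leaving out wild-type stage 8 replicate 3 ended the call of Aats-val (adjusted p = 0.0524). 7 of the 16 ratios were lower without overlap and 0 higher. Of single genes 24.1% were lower and 43.6% higher without overlap, shares that again depend on scaling as the ratios do not. As shares of the summed FPKM, which differed between libraries, the 21 genes held 0.131%, 0.135% and 0.135% in EcRts stage 10, 0.162%, 0.156% and 0.155% in wild-type stage 10, and 0.159%, 0.149% and 0.166% in wild-type stage 8. Rows other than protein-coding genes held 39.7%, 37.6% and 37.4% of the summed FPKM in EcRts stage 10, 20.9%, 21.2% and 20.2% in wild-type stage 10, and 32.4%, 33.1% and 30.6% in wild-type stage 8. Of the FPKM summed over protein-coding genes alone, the 21 genes held 0.217%, 0.216% and 0.215% in EcRts stage 10, 0.205%, 0.198% and 0.194% in wild-type stage 10, and 0.235%, 0.223% and 0.239% in wild-type stage 8. EcRts stage 10 was the lowest group on the first scale and lay between both wild-type groups on the second, so the order of these shares depends on the sum they are taken of.

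Of the 15 synthetase genes outside the Aats- symbols, 5 rose and 1 fell in the stage comparison, 0 rose and 1 fell by limma in the genotype comparison (0 and 3 at an unadjusted p under 0.05), and 3 rose and 2 fell in the combined one. The 5 that rose between the wild-type stages are among 10 mitochondrial ones, beside 49.2% of all tested genes, and CG7441 and CG31739 turned to -0.081 and -0.048 under other scalings. The largest rises were those of CG5660 and of Slimp, a seryl-tRNA synthetase paralogue of fly mitochondria that has lost the charging activity. Between the wild-type stages CG5660 rose under all 6 scalings (0.50 to 0.90). Slimp was at 11.2 ± 0.612 FPKM in EcRts stage 10, 10.7 ± 1.30 FPKM in wild-type stage 10 and 7.05 ± 1.14 FPKM in wild-type stage 8. It rose against stage 8 in wild-type stage 10 (0.55, SE 0.116, adjusted p = 0.00314) and in EcRts stage 10 (0.61, SE 0.116, adjusted p = 0.0023), with positive changes under all 6 scalings in both. The 3 AIMP genes encode scaffold proteins of the complex. AIMP3 (CG30185) was at 73.5 ± 5.68 FPKM in EcRts stage 10, 75.6 ± 0.785 FPKM in wild-type stage 10 and 62.8 ± 2.0 FPKM in wild-type stage 8. It rose against stage 8 in wild-type and EcRts stage 10 (0.26 and 0.22, SE 0.056 each, adjusted p = 0.0031 and 0.00871). The change stayed positive under all 6 scalings, with lowest values of 0.031 and 0.021, but passed the test under only 4 in each comparison. AIMP1 (CG8235) was at 71.9 ± 1.66 FPKM in EcRts stage 10, 66.9 ± 8.03 FPKM in wild-type stage 10 and 71.2 ± 0.929 FPKM in wild-type stage 8. AIMP2 (CG12304) was at 86.8 ± 5.06 FPKM in EcRts stage 10, 93.6 ± 3.36 FPKM in wild-type stage 10 and 84.5 ± 8.90 FPKM in wild-type stage 8. Neither passed the test in any comparison.

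Charged tRNAs are carried to the ribosome by elongation factors. Of 4 tested genes for cytosolic elongation factor 1, 3 fell in the stage comparison and 3 in the combined one, while in the genotype comparison limma called 0 (1 was lower at an unadjusted p under 0.05). Of all tested genes 18.9% fell in the stage comparison, 21.5% in the combined one and 33.9% in the genotype comparison. Ef1gamma was at 1274 ± 35.5 FPKM in EcRts stage 10, 1176 ± 80.3 FPKM in wild-type stage 10 and 1825 ± 60.8 FPKM in wild-type stage 8. Its changes against stage 8 were -0.64 (SE 0.058, adjusted p = 3.65e-05) in wild-type stage 10 and -0.52 (SE 0.058, adjusted p = 0.000162) in EcRts stage 10. Ef1alpha48D, which holds the charged tRNA itself, fell against stage 8 by 0.46 in wild-type stage 10 (adjusted p = 0.000335) and by 0.60 in EcRts stage 10 (adjusted p = 0.000129), negative under all 6 scalings. Of 85 tested cytosolic ribosomal protein genes 81 fell between the wild-type stages, with a median change of -0.42, against -0.17 for the 15 cytosolic Aats- genes. Quantile scaling left 31 falling and 10 rising, beside 30.4% and 31.5% of all tested genes. In the mitochondrion, EfTuM, the elongation factor Tu that carries charged tRNAs there, fell in the stage comparison (-0.33, adjusted p = 0.00612), the genotype comparison (-0.36, adjusted p = 0.00777) and the combined one (-0.69, adjusted p = 0.000177), negative under all 6 scalings. Its levels were 89.9 ± 5.21 FPKM in EcRts stage 10, 116 ± 6.68 FPKM in wild-type stage 10 and 146 ± 14.0 FPKM in wild-type stage 8. A second gene of this factor, CG12736, fell between the wild-type stages (-0.49, adjusted p = 5.4e-05) but rose in the genotype comparison (0.39, adjusted p = 0.000636), with the same sign under all 6 scalings in each. Of 71 mitochondrial ribosomal protein genes 26 rose and 8 fell between the wild-type stages, a balance that scaling reversed, with 6 rising and 32 falling by median of ratios. Among all tested genes 49.2% rose and 18.9% fell as deposited, and 31.1% rose and 32.0% fell by median of ratios.

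Uncharged tRNAs activate the kinase Gcn2, and the transcription factor ATF4, crc in the fly, raises synthetase and amino acid biosynthesis genes in mammals. Of 13 genes of this response and of serine and glycine synthesis, 3 rose and 6 fell in the stage comparison, 1 rose and 6 fell in the genotype comparison, and 2 rose and 8 fell in the combined one. Among all tested genes 49.2% rose and 18.9% fell in the stage comparison, 9.93% and 33.9% in the genotype comparison, and 39.8% and 21.5% in the combined one. crc itself was at 279 ± 11.8 FPKM in EcRts stage 10, 288 ± 13.4 FPKM in wild-type stage 10 and 326 ± 17.2 FPKM in wild-type stage 8. It fell in both stage 10 groups against stage 8 (-0.18, adjusted p = 0.0199, and -0.22, adjusted p = 0.00823), but its change between the wild-type stages turned to 0.049 without eggshell and yolk genes. Gcn2 was at 17.8 ± 0.687 FPKM in EcRts stage 10, 17.3 ± 1.01 FPKM in wild-type stage 10 and 13.6 ± 0.740 FPKM in wild-type stage 8, and it rose against stage 8 in both (0.32, adjusted p = 0.00166, and 0.36, adjusted p = 0.0012), positive under all 6 scalings. Between the wild-type stages it passed the test under 4 of them, with a lowest change of 0.042, and in the combined comparison under all 6.

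Thor, the fly 4E-BP, which holds back cap-dependent translation, changed more than any synthetase gene. It was at 24.5, 18.3 and 28.3 FPKM in EcRts stage 10, 75.5, 63.5 and 76.3 FPKM in wild-type stage 10, and 135, 175 and 161 FPKM in wild-type stage 8. The groups were apart in all comparisons, with changes of -1.12 between the wild-type stages, -1.58 between the genotypes at stage 10 and -2.69 between EcRts stage 10 and wild-type stage 8 (SE 0.161 each), and adjusted p of 0.000389, 0.000324 and 1.63e-05. Asparagine synthetase, listed as asparagine-synthetase and an ATF4 target in mammals, was at 66.5, 70.6 and 70.7 FPKM in EcRts stage 10, 122, 131 and 118 FPKM in wild-type stage 10, and 122, 91.8 and 161 FPKM in wild-type stage 8. It fell in the genotype comparison (-0.83, SE 0.170, adjusted p = 0.00603) and did not pass the test between the wild-type stages. Thor fell under all 6 scalings in each comparison, and asparagine-synthetase under all 6 in the genotype comparison. Aats-asn, which uses the product of asparagine synthetase, was at 124 ± 4.98 FPKM in EcRts stage 10 and 120.1 ± 6.85 FPKM in wild-type stage 10, and did not pass the test. Nmdmc, a mitochondrial folate enzyme, fell in the stage comparison (-0.92, SE 0.146, adjusted p = 0.000649) and the combined one (-1.17, SE 0.146, adjusted p = 0.000272), under all 6 scalings in both. Its levels were 18.4, 25.7 and 26.0 FPKM in EcRts stage 10, 31.6, 24.6 and 26.7 FPKM in wild-type stage 10, and 57.4, 47.6 and 54.9 FPKM in wild-type stage 8.

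**Figure D5:**
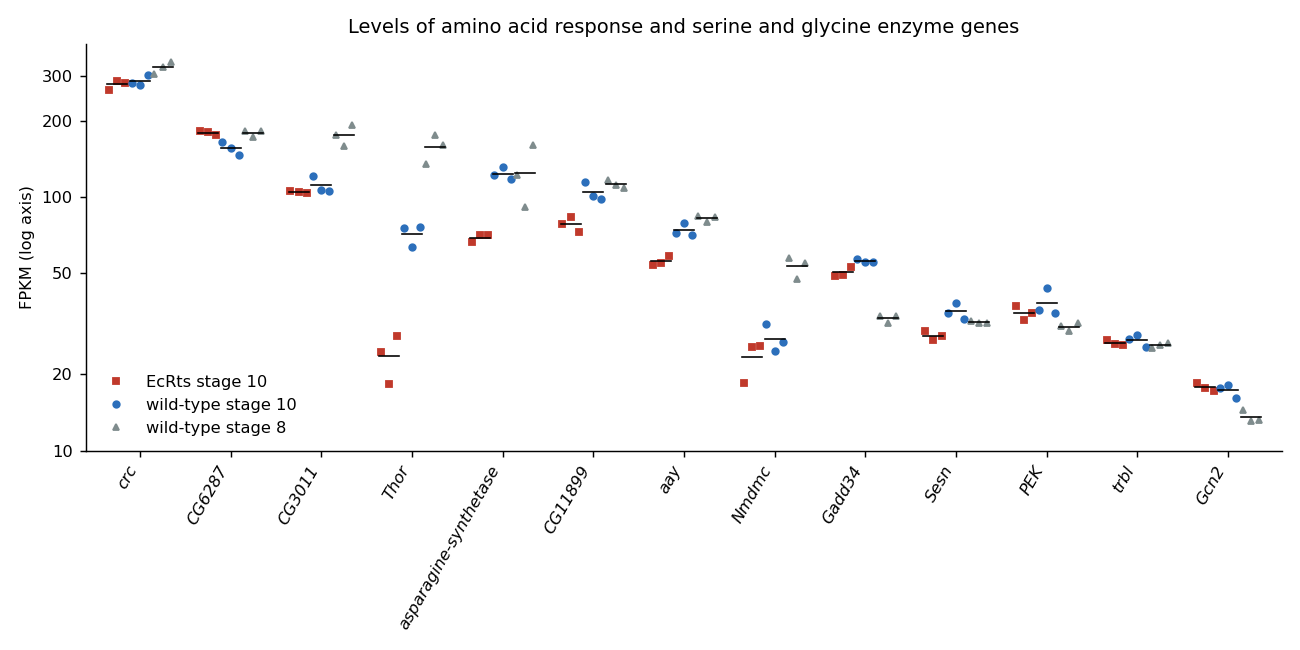
FPKM (log axis) of 13 genes of the amino acid response and of serine and glycine synthesis in every library, with EcRts stage 10 as squares, wild-type stage 10 as circles, wild-type stage 8 as triangles and a bar at each group mean. Thor is at 18.3 to 28.3 FPKM in EcRts stage 10, 63.5 to 76.3 FPKM in wild-type stage 10 and 135 to 175 FPKM in wild-type stage 8, and asparagine-synthetase is lowest in the 3 EcRts libraries.

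The tRNAs that synthetases charge are first processed and modified. Of 13 genes listed for this, 2 rose and 9 fell in the stage comparison, 0 rose and 2 fell by limma in the genotype comparison (0 and 3 at an unadjusted p under 0.05), and 1 rose and 9 fell in the combined one. Of all tested genes 18.9%, 33.9% and 21.5% fell in these comparisons, in this order, and 49.2%, 9.93% and 39.8% rose. The genes that rose between the wild-type stages were CG5220 (Trm7-32), a tRNA methyltransferase, and tatl (Tgs1), which methylates RNA caps rather than tRNAs and turned to -0.017 under another scaling. Elp2, a subunit of the Elongator complex that modifies the wobble base, fell in the stage comparison (-0.58, SE 0.086, adjusted p = 0.000465), under all 6 scalings. Elp2 averaged 15.3 ± 1.15 FPKM in wild-type stage 10 and 23.3 ± 2.71 FPKM in wild-type stage 8. Rpp30, a subunit of RNase P, which trims the 5′ end of precursor tRNAs, fell in the combined comparison (-0.76, SE 0.086, adjusted p = 0.000166), at 16.3 ± 1.65 FPKM in EcRts stage 10 and 28.3 ± 2.43 FPKM in wild-type stage 8. CG5220 and CG18643 (Dtd), which removes D-amino acids from tRNAs, were the 2 genes that fell in the genotype comparison. CG18643 passed the test there under only 3 of 6 scalings, with changes from -0.59 to -0.16. CG5220 had the larger change (-0.43, SE 0.069, adjusted p = 0.00207), under all 6 scalings, at 35.5 ± 0.711 FPKM in EcRts stage 10 and 48.2 ± 3.57 FPKM in wild-type stage 10.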

How the data were processed

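The authors deposited gene-level FPKM values with confidence limits and a status for each gene. Cufflinks 2.02, TopHat2 2.0.7, Bowtie2 2.0.6, CASAVA 1.8.2 and build dm3 are named in the submitters' processing notes, without their settings. Neither annotation release nor strand setting is given in the sources used here. From these values, 8340 genes were tested, namely those that reached 1 FPKM in 3 or more of the 9 libraries. 21 genes listed at 0 where their estimate had failed were left out. log2(FPKM + 1) was fitted in limma 3.58.1 (R 4.3.3) with 1 mean per group, all 9 libraries and an intensity trend, and p-values were adjusted by Benjamini-Hochberg within each of the 3 comparisons at 0.05. A pseudocount of 1 understates changes of low genes. Implied fragments come from the confidence limits, and of implied counts under 50 only 56.6% to 60.65% per library were whole (tolerance 0.02), so no count test was run. The labels do not say whether the samples within a group are from different females, so p-values measure only the spread between these samples.

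Values of every library are given for Aats- genes that passed the test without overlap of the groups in either of the first 2 comparisons, and group means for the rest. From other lists up to 2 of the largest changes per comparison without overlap, crc, Gcn2 and the AIMP genes are named, and further genes were named after their values were seen, as partners in a ratio or in counts of few genes. The genes and lists were chosen with earlier results of these data known, and the division by the mammalian complex was made after the values were seen. Symbols were matched to current ones by gene identifier for 15423 of 15602 genes. The lists were matched except for GatC. 1 gene of the tRNA maturation list is counted but not reported here by itself. Alternatives were other pseudocounts, filters and scalings, fits of only the groups compared, without the trend or with a replicate block, each library left out, and, added after the data were seen, failed estimates treated as missing. The fit was checked on simulated data. Python 3.11.15, pandas 2.3.3 and numpy 2.4.6 made the tables, and matplotlib 3.10.9 drew the figures.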

Additional observations from a re-analysis of the deposited data

How the results depend on the processing

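The scaling between libraries was the choice that moved the results most. Values below are changes of genes that changed sign, or counts that moved by over 1.5 times, and the cause was not tested. Of 105 gene values under 5 other scalings, 22 turned in direction in the stage comparison, 39 in the genotype comparison and 18 in EcRts stage 10 relative to wild-type stage 8. Other pseudocounts, filters, fits and the treatment of failed estimates, added after seeing the data, turned 0 of 168 in each.

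Between the wild-type stages, the counts moved to 0 higher and 14 lower by median of ratios, 0 higher and 17 lower by quantiles, 10 higher and 2 lower without eggshell and yolk genes and 2 higher over protein-coding genes. The direction turned by median of ratios for Aats-trp (-0.013), Aats-ser (-0.16), Aats-met (-0.062), Aats-leu (-0.11) and Aats-cys (-0.10). The direction turned by quantiles for Aats-ser (-0.23), Aats-pro (-0.045), Aats-met (-0.13), Aats-leu (-0.16) and Aats-cys (-0.085). The direction turned without eggshell and yolk genes for Aats-phe (0.094), Aats-val (0.19), Aats-thr (0.18), Aats-ile (0.024), Aats-gly (0.16), Aats-ala (0.15), Aats-ala-m (0.20) and Aats-asn (0.052). The direction turned over protein-coding genes for Aats-ser (-0.0036). The direction turned without ribosomal protein genes for Aats-val (0.020), Aats-thr (0.0095) and Aats-ala-m (0.045). Leaving out 1 library at a time gave 2 to 4 genes higher. Leave-one-out changes spanned 0 for Aats-ser (-0.012 to 0.13), Aats-val (-0.12 to 0.013) and Aats-ala-m (-0.052 to 0.035).

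Between the genotypes at stage 10, the counts moved to 4 higher and 3 lower by median of ratios, 4 higher and 3 lower by quantiles, 6 higher and 0 lower over protein-coding genes, 17 lower without eggshell and yolk genes and 21 lower without ribosomal protein genes. The direction turned by median of ratios for Aats-glupro (0.077), Aats-phe (0.12), Aats-ser (0.091), Aats-tyr (0.070), Aats-met (0.054), Aats-his (0.052), Aats-gly (0.058) and Aats-ala-m (0.11). The direction turned by quantiles for Aats-glupro (0.10), Aats-trp (0.018), Aats-phe (0.11), Aats-ser (0.093), Aats-tyr (0.087), Aats-thr (0.0053), Aats-met (0.056), Aats-his (0.073), Aats-gly (0.075) and Aats-ala-m (0.11). The direction turned without eggshell and yolk genes for Aats-asp (-0.16), Aats-lys (-0.11), Aats-gln (-0.10) and Aats-asn (-0.13). The direction turned over protein-coding genes for Aats-glupro (0.15), Aats-trp (0.069), Aats-phe (0.19), Aats-ser (0.16), Aats-tyr (0.15), Aats-thr (0.054), Aats-met (0.13), Aats-leu (0.067), Aats-ile (0.042), Aats-his (0.13), Aats-gly (0.13), Aats-cys (0.044) and Aats-ala-m (0.18). The direction turned without ribosomal protein genes for Aats-asp (-0.23), Aats-lys (-0.19), Aats-gln (-0.18) and Aats-asn (-0.21). Leaving out 1 library at a time gave 3 to 6 genes lower. Leave-one-out changes spanned 0 for Aats-glupro (-0.085 to 0.012), Aats-phe (-0.068 to 0.075), Aats-ser (-0.091 to 0.047), Aats-tyr (-0.090 to 0.0032) and Aats-ala-m (-0.047 to 0.041).

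Between EcRts stage 10 and wild-type stage 8, the counts moved to 1 higher without eggshell and yolk genes, 2 higher over protein-coding genes and 18 lower without ribosomal protein genes. The direction turned by median of ratios for Aats-trp (-0.019), Aats-ser (-0.070) and Aats-met (-0.0078). The direction turned by quantiles for Aats-ser (-0.13) and Aats-met (-0.075). The direction turned without eggshell and yolk genes for Aats-leu (0.031), Aats-cys (0.016) and Aats-ala-m (0.027). The direction turned over protein-coding genes for Aats-phe (0.0021), Aats-pro (0.0015), Aats-leu (0.12), Aats-cys (0.10), Aats-arg (0.070), Aats-ala-m (0.11) and Aats-asn (0.0075). The direction turned without ribosomal protein genes for Aats-trp (-0.11), Aats-ser (-0.16) and Aats-met (-0.093). Leave-one-out changes spanned 0 for Aats-ser (-0.029 to 0.070), Aats-leu (-0.031 to 0.013), Aats-cys (-0.073 to 0.030) and Aats-ala-m (-0.044 to 0.020).

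Whether the replicate numbers pair the libraries was not clear. The correlation of deviations lay between -0.039 and 0.23 for same-numbered libraries and between -0.235 and 0.167 for libraries of different numbers. With the replicate number as a block, 3 genes were higher and 7 lower between the wild-type stages, 0 and 4 between the genotypes, and 0 and 10 between EcRts stage 10 and wild-type stage 8. The block ended the calls of Aats-met (adjusted p = 0.0635) and Aats-asn (adjusted p = 0.0647) between the wild-type stages and of Aats-val (adjusted p = 0.0559) between the genotypes. Not every library correlated best with its own number. 3 libraries a group limit every test.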
